A study of Arabidopsis thaliana with 38 samples.

Results

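Transcripts of whole globular-stage seeds were compared between Col-0, the wild type, and *vel3-1*, a T-DNA insertion line in the Col-0 background. The genes described are nuclear and reach a mean of 5 TPM (reads per gene scaled by its length and by library) in either genotype, 17710 of the 26925 genes listed. RNA-seq was made from polyA RNA of seeds collected on day 8 after pollination from plants grown at a cool temperature, with 3 libraries per genotype, each from the pooled seeds of several siliques. Seeds of the *vel3-1* line carry the insertion in embryo, endosperm and maternal seed coat alike, no other allele was sequenced at this stage, and a share of the seeds of the line aborts, so a pool may hold seeds at different states. A whole seed mixes these 3 tissues, and in such samples fewer cells of a type and less RNA per cell cannot be told apart.

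VEL3 is a plant-specific protein related to VIN3, the protein through which winter cold silences *FLC*, and such proteins act beside Polycomb repressive complex 2 (PRC2), which places the repressive mark H3K27me3. In the endosperm, the nourishing tissue formed when the central cell is fertilised, a seed form of PRC2 keeps type I MADS-box genes and the maternal copies of many imprinted genes silent. The endosperm first divides as a syncytium and is later partitioned into cells, and auxin made there after fertilisation delays this step and prompts growth of the seed coat.

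*VEL3* itself (AT2G18870, chr2:8167471-8168668 of TAIR10.1) serves to check the labels. Its TPM of 1.34, 1.995 and 2.23 in Col-0 stood against 9.79, 8.30 and 13.0 in the libraries labelled *vel3-1*, and the log2 difference was 1.99 ± 0.46 (SE, n = 3 per genotype). The difference missed the threshold (1.53, adjusted p = 0.124 by limma on 6 libraries) with the level of silent genes, described next, taken off each library. The gene disrupted by the insertion was thus higher in those libraries, and whether the transcript was intact cannot be read from a value per gene. All directions below are therefore given for the libraries labelled *vel3-1*. For the reference gene *ACT2*, TPM of 24.2, 21.5 and 21.4 in Col-0 overlapped with 20.3, 25.6 and 25.3 in the libraries labelled *vel3-1*.

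The libraries summed to between 790391 and 892760 TPM, with 7.41 to 9.77% in chloroplast and mitochondrial genes. The third library labelled *vel3-1* stood apart. The 4212 nuclear genes listed at 0 in all 6 libraries of endosperm imbibed for 24 h (24HAI) had a median of 10.0 TPM in *vel3-1* replicate 3, against 0.317, 0.376 and 0.613 TPM in Col-0 against 1.43 and 0.322 TPM in replicates 1 and 2 labelled *vel3-1*. This raised level at silent genes touches every low value of that library. A gene was therefore called higher or lower only where limma found a 2-fold or larger difference with an adjusted p under 0.05 both with all 6 libraries and, in the same direction, with the 5 libraries left without *vel3-1* replicate 3. Log2 differences below are of TPM + 1 over 6 libraries, which understates the change of low genes, and adjusted p-values are from limma on 5 libraries unless stated. The standard errors given after ± are of 6 libraries unless stated. Those of 6 libraries are taken from genes at the same level and do not hold a gene's own spread.

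Of the 17710 genes, 320 were called higher in the libraries labelled *vel3-1* and 69 lower, which is 1.81% and 0.39% of them. Over all 26593 genes tested, 1.24% were called higher and 0.263% lower. With 6 libraries alone the counts were 415 and 97. The differences of the called genes ran from 1.01 to 5.23 with a median of 1.82 for those higher, and from -4.32 to -1.001 with a median of -1.50 for those lower, while the median over all 17710 genes was 0.21 with 6 libraries and 0.13 with 5. The values of the genotypes did not overlap for 318 of the 320 and for 63 of the 69, against 21.8% (higher) and 5.94% (lower) of all 17710 genes. The calls were made on these same values, so this is no independent evidence for them. Just outside the 5 TPM limit lay *SOL1* and AT3G24540, whose means labelled *vel3-1* were 4.9992 and 4.9993 TPM, and just inside lay *TBL18* and AT1G53690, at 5.0003 and 5.0024 TPM.

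**Figure D1:**
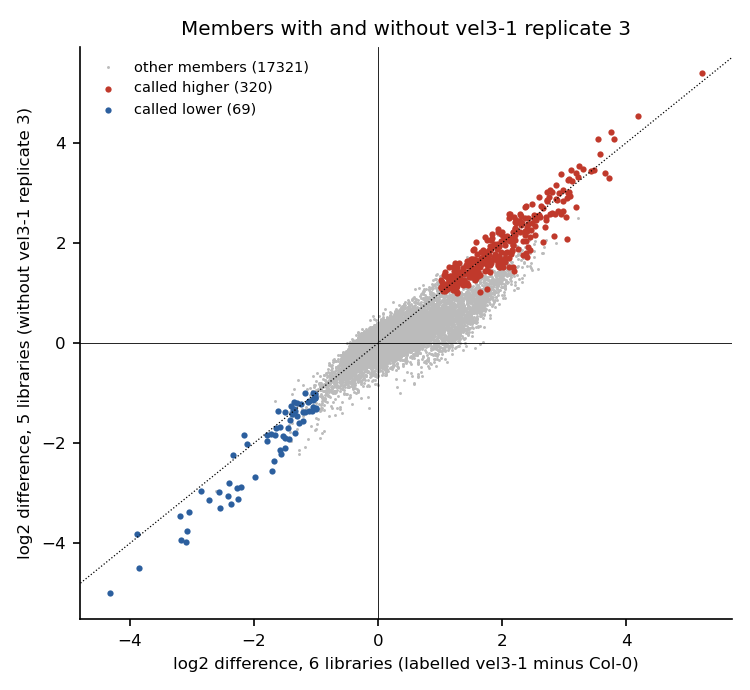
Log2 difference (libraries labelled vel3-1 minus Col-0, of TPM + 1) of each of the 17710 genes with 6 libraries (x axis) and with the 5 libraries left without vel3-1 replicate 3 (y axis), with called genes coloured. The called genes lie at 1 or beyond, in either direction, on both axes, and the median of all genes falls from 0.21 to 0.13 without that library.

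The median of the genes called higher was 4.82, 6.80 and 5.09 TPM in Col-0, against 21.3, 21.2 and 22.1 TPM in the libraries labelled *vel3-1*. The 5 TPM limit admits a gene through either genotype. Through the libraries labelled *vel3-1* alone passed 148 of the 320 (46.2%), against 24.0% of all genes, 27 of the 148 with a Col-0 mean under 1 TPM. Genes called lower went from medians of 64.5, 45.6 and 55.5 TPM to 13.6, 10.2 and 17.3 TPM. In both sets the median of Col-0 replicate 2 lay nearest to the libraries labelled *vel3-1*, so the called genes also varied among Col-0 pools. The part of the stage of the pooled seeds in these differences was not tested. The library with the raised level was the lowest of the 3 labelled *vel3-1* for 126 of the 320 genes (39.4%), and it was the highest of the 3 for 45 of the 69 lower genes (65.2%). These 2 shares were not counted over all genes. With the median of the silent genes taken off each library (background subtracted), 143 of the 320 (44.7%) and 51 of the 69 (73.9%) were again called. Limma without the trend, which takes no spread from genes at the same level, called 0 genes in either direction over 6 libraries, although before adjustment 1334 of the 17710 genes had a p under 0.05 with a higher value and 319 with a lower one.

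The largest rise was in *sks8* (AT1G21850, chr1:7667803-7670530), which encodes a SKU5 SIMILAR protein, a relative of the multicopper oxidases found at the cell wall. Its TPM was 0.791, 2.57 and 1.43 in Col-0 and 150, 71.5 and 73.3 in the libraries labelled *vel3-1*. The difference was 5.23 ± 0.24 (adjusted p = 4.07e-05), and the library with the raised level did not have the highest value. AT5G38160 (chr5:15225767-15226208), annotated as a lipid-transfer or 2S albumin-like protein, fell furthest, from 354, 24.8 and 86.8 TPM to 2.18, 1.69 and 10.9 TPM. Its Col-0 libraries differed by over an order of magnitude among themselves, yet each lay above every library labelled *vel3-1*. The difference was -4.32 ± 0.21 with 6 libraries and -4.99 ± 0.76 with 5 (adjusted p = 0.00427). The 300 bases upstream of the RefSeq gene start of AT5G38160 (TAIR10.1, chr5:15225467-15225766, plus strand, 5′ to 3′) are shown because it fell furthest, with the letters of the motifs found in capitals: TATAAA and CATGCA, each read on the other strand.
AT5G38160: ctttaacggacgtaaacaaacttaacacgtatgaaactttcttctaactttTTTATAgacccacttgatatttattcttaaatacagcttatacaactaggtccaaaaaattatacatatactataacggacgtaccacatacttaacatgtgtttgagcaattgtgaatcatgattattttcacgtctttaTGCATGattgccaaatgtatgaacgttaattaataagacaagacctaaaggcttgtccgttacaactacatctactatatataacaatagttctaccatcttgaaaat

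The 10 largest rises were mostly in genes of secreted peptides and wall proteins. AT4G30380, annotated as a barwin-related endoglucanase, was listed at 0.385, 2.46 and 1.30 TPM in Col-0 and at 56.9, 44.9 and 24.1 TPM in the libraries labelled *vel3-1*. The defensin-like gene AT1G61688 rose from 47.3, 144 and 61.8 TPM to 1647, 985 and 730 TPM (3.80 ± 0.32), which makes it 1 of the 3 called genes of the highest mean level. The thionin-like neighbours AT1G30974 and AT1G30972 rose by 3.76 and 3.55. They share exon sequence with other loci in 26.6% and 29.2% of their 31-base words, so the split of reads between such copies is uncertain. AtENODL22 (AT1G17800), an early nodulin-like copper protein, had 2.78, 4.74 and 2.94 TPM in Col-0 against 70.0, 29.5 and 79.7 TPM in the libraries labelled *vel3-1*. AT4G23350, of a family of unknown function, rose by 3.58, the RALF peptide gene AT1G60913 by 3.49 and the cysteine-rich peptide gene *LCR61* by 3.43. AT5G52080 had a listed value of 0 in each Col-0 library and was at 21.8, 3.23 and 22.8 TPM in the others, and 60.3% of its exon words occur elsewhere in the genome.

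The 10 largest falls held 2 neighbouring lipid-transfer-like genes, 2 secreted-peptide genes and 2 transcription factor genes. AT5G38180 lies close to AT5G38160 and fell from 96.7, 14.7 and 43.5 TPM to 3.33, 1.15 and 11.3 TPM. The self-incompatibility S1-like gene AT3G24068 had 498, 412 and 378 TPM in Col-0 against 13.9, 60.4 and 26.1 TPM in the libraries labelled *vel3-1* (-3.87 ± 0.21, adjusted p = 0.000759). The defensin gene *PDF2.2* went from 147, 25.6 and 88.5 TPM to 5.12, 5.82 and 10.2 TPM. In each of these the groups stayed apart although replicate 2 of Col-0 was low in the first and the last, as in the median of the genes called lower. *LBD20*, of the LATERAL ORGAN BOUNDARIES family, fell by 3.05 on the log2 scale and *GATA29*, a GATA zinc finger factor, fell by 3.08. AT1G15757 (Hsp40/DnaJ-like) fell by 3.85, AT4G02830 (unknown) by 3.17, AT3G49300 (proline-rich) by 2.85 and AT2G24580 (FAD-dependent oxidoreductase) by 2.72. The library with the raised level was the highest of the 3 labelled *vel3-1* for *PDF2.2*, *LBD20*, *GATA29*, AT1G15757 and AT4G02830, and without it the fall was larger in each, from 3.36 in *LBD20* to 4.50 in AT1G15757.

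**Figure D2:**
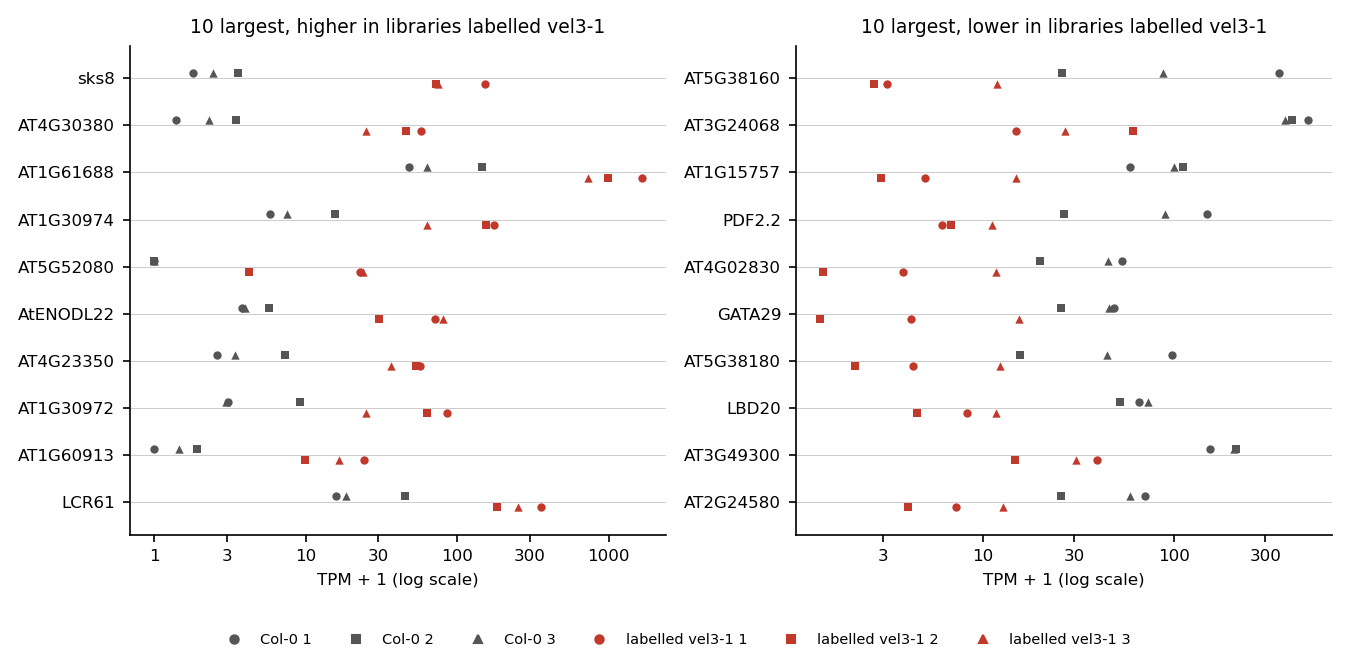
TPM + 1 (log axis) of the 10 largest rises and the 10 largest falls among called genes whose values do not overlap, with a point for each of the 6 libraries. In sks8 the Col-0 points lie at 0.791 to 2.57 TPM and those labelled vel3-1 at 71.5 to 150 TPM, and in AT5G38160 the order is the opposite.

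Type I MADS-box genes, transcription factors of the female gametophyte and early endosperm, belong to the annotation class with the highest share called higher, the MADS-box genes, in which 12 of 61 (19.7%) were called higher and 0 lower. Of 24 type I genes listed, 21 passed the 5 TPM limit, 10 were called higher and none lower, against 1.81% and 0.39% of all genes. Their median difference was 1.53 (1.48 with 5 libraries), beside 0.21 over all genes. The count called higher was 8 with the background subtracted. Of the 10 called, all but *AGL35* are among the genes that the study drew on these samples, so the count is no independent evidence. Only *PHE1*, *AGL28* and *AGL35* of the 10 had a Col-0 mean of 5 TPM or more. The others passed the limit through the libraries labelled *vel3-1* alone, so the limit partly fixes the share. *AGL36* (AT5G26650) was at 2.47, 5.24 and 4.38 TPM in Col-0 and at 33.5, 38.1 and 25.4 TPM in the libraries labelled *vel3-1*. *AGL90* (AT5G27960) was at 2.15, 3.64 and 1.30 TPM and at 30.3, 31.6 and 26.1 TPM (3.23 ± 0.30, adjusted p = 7.6e-05). Values of both genes in all 3 libraries labelled *vel3-1* lay several times above any in Col-0. These genes are close copies on chromosome 5, and 32.9% and 33.3% of their exon words occur elsewhere, so their reads may be split between them. Their upstream windows are shown because both moved alike: they are identical at 96.0% of 300 positions, and the 12 that differ are in capitals (chr5:9343485-9343784, plus strand and chr5:9992771-9993070, minus strand).
AGL36: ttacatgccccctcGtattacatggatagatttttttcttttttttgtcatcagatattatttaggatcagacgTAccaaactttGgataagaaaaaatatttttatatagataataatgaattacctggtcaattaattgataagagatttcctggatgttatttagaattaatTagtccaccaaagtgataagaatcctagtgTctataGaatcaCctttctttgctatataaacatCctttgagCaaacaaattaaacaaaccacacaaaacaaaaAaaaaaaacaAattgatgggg
AGL90: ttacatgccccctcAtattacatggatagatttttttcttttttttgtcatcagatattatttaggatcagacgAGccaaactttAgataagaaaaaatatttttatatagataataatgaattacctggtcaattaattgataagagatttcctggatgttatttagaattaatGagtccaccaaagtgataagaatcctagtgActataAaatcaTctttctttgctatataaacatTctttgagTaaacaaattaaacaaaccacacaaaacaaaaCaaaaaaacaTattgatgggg

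*PHE1* (PHERES1, AT1G65330), which is expressed from the paternal copy and binds many endosperm genes, had 21.2, 27.5 and 19.9 TPM in Col-0 against 148, 166 and 74.99 TPM in the libraries labelled *vel3-1* (2.38 ± 0.19, adjusted p = 4.07e-05). The groups were far apart, and the library with the raised level was the lowest of the 3. Its neighbour *PHE2* moved from 43.6, 45.8 and 43.2 TPM to 95.1, 105 and 56.1 TPM, a difference of 0.88 that did not reach the 2-fold minimum with 6 libraries and was 1.16 with 5. *AGL62*, which holds back partition of the endosperm into cells, was at 1.25, 2.59 and 3.14 TPM in Col-0 and at 12.2, 9.34 and 9.27 TPM in the libraries labelled *vel3-1* (1.80 ± 0.43, adjusted p = 0.00311). These levels lie near the 10.0 TPM of silent genes in replicate 3, and with the silent-gene median taken off each library the adjusted p of *AGL62* was 0.815, although replicates 1 and 2 alone lay above every Col-0 library. *AGL64* rose by 2.92, the neighbours *AGL59* and *AGL58* by 2.98 and 2.72, *AGL23* by 1.73, *AGL35* by 1.68 and *AGL28* by 1.53. *AGL40* and *AGL45* had differences of 0.85 and 0.98 with the groups apart, short of the 2-fold minimum. *AGL91*, *AGL96* and *AGL102*, at Col-0 levels near that of *PHE1*, had differences between -0.15 and 0.12. The MADS-box genes *AGL29* and AT5G46320, outside that list and chosen after their values were seen, rose by 2.14 and 1.97.

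Genes of both steps of auxin synthesis rose. Tryptophan is turned into indole-3-pyruvate by the TAA1 family and then into auxin by the YUCCA family. Of 9 genes listed, 6 passed the limit and 4 were called higher (3 with the background subtracted), against 1.81% of all genes, with a median of 1.77. The 4 called, *TAR1*, *YUC10*, *WEI8* and *PGP10*, are all among the genes that the study drew on these samples, so the count is no independent evidence. *TAR1*, of the first step, was at 2.54, 2.51 and 2.15 TPM in Col-0 and at 18.5, 16.8 and 21.2 TPM in the libraries labelled *vel3-1* (2.54 ± 0.34, adjusted p = 5.56e-05). *YUC10*, of the second, was at 2.47, 3.98 and 3.94 TPM and at 22.1, 28.0 and 22.7 TPM (2.51 ± 0.29, adjusted p = 0.0001). The library with the raised level was the highest of its 3 in *TAR1* and not in *YUC10*. *WEI8*, which encodes TAA1 itself, rose by 1.78 and *PGP10*, an ABC transporter, by 1.76. *TAR2*, the other family member above the limit in all libraries, was at 9.93, 11.3 and 11.9 TPM and at 11.4, 13.1 and 14.98 TPM, a difference of 0.23. *GH3.4*, which belongs to the auxin-responsive enzymes that attach amino acids to hormones, rose by 1.95. The *CYP79B2* and *CYP79B3* genes lay under the limit, and their values outside replicate 3 did not exceed 3.16 TPM.

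Transcripts of 4 enzyme genes of gibberellin synthesis rose. *CPS1*, the enzyme of the first committed step, was at 0.593, 1.55 and 1.12 TPM in Col-0 and at 14.7, 14.6 and 21.1 TPM in the libraries labelled *vel3-1* (3.10 ± 0.43, adjusted p = 9.75e-05). The next enzymes, *KS* and *KO*, had differences of 0.00 and 0.58 and were not called. *KAO1*, which makes the first gibberellin of the route, went from 17.4, 24.8 and 18.3 TPM to 66.1, 75.3 and 48.6 TPM (1.60 ± 0.19, adjusted p = 0.000288), while its paralogue *KAO2* was at 22.1, 9.75 and 16.9 TPM and at 6.41, 5.00 and 13.9 TPM, with no call. Its groups overlapped through replicate 3 labelled *vel3-1*, and without that library the difference was -1.30 (adjusted p = 0.0297). Late in the route, *GA20OX5* went from 8.88, 8.34 and 6.35 TPM to 41.9, 49.6 and 31.1 TPM (2.23 ± 0.22, adjusted p = 5.56e-05), and *GA3OX4*, which makes bioactive forms, from 11.2, 13.0 and 7.97 TPM to 44.2, 42.1 and 44.3 TPM (1.95 ± 0.21, adjusted p = 0.000291). *GA20OX2*, the other oxidase of its family above the limit, had a difference of -0.27. Of 16 genes listed, 11 passed the limit, 4 were called higher and none lower, against 1.81% and 0.39% of all genes, with a median of 1.00. The count called higher was again 4 with the background subtracted. Of these, *CPS1*, *GA20OX5* and *GA3OX4* are among the genes that the study drew on these samples, so the count is no independent evidence. *CPS1* passed the limit through the libraries labelled *vel3-1* alone.

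**Figure D3:**
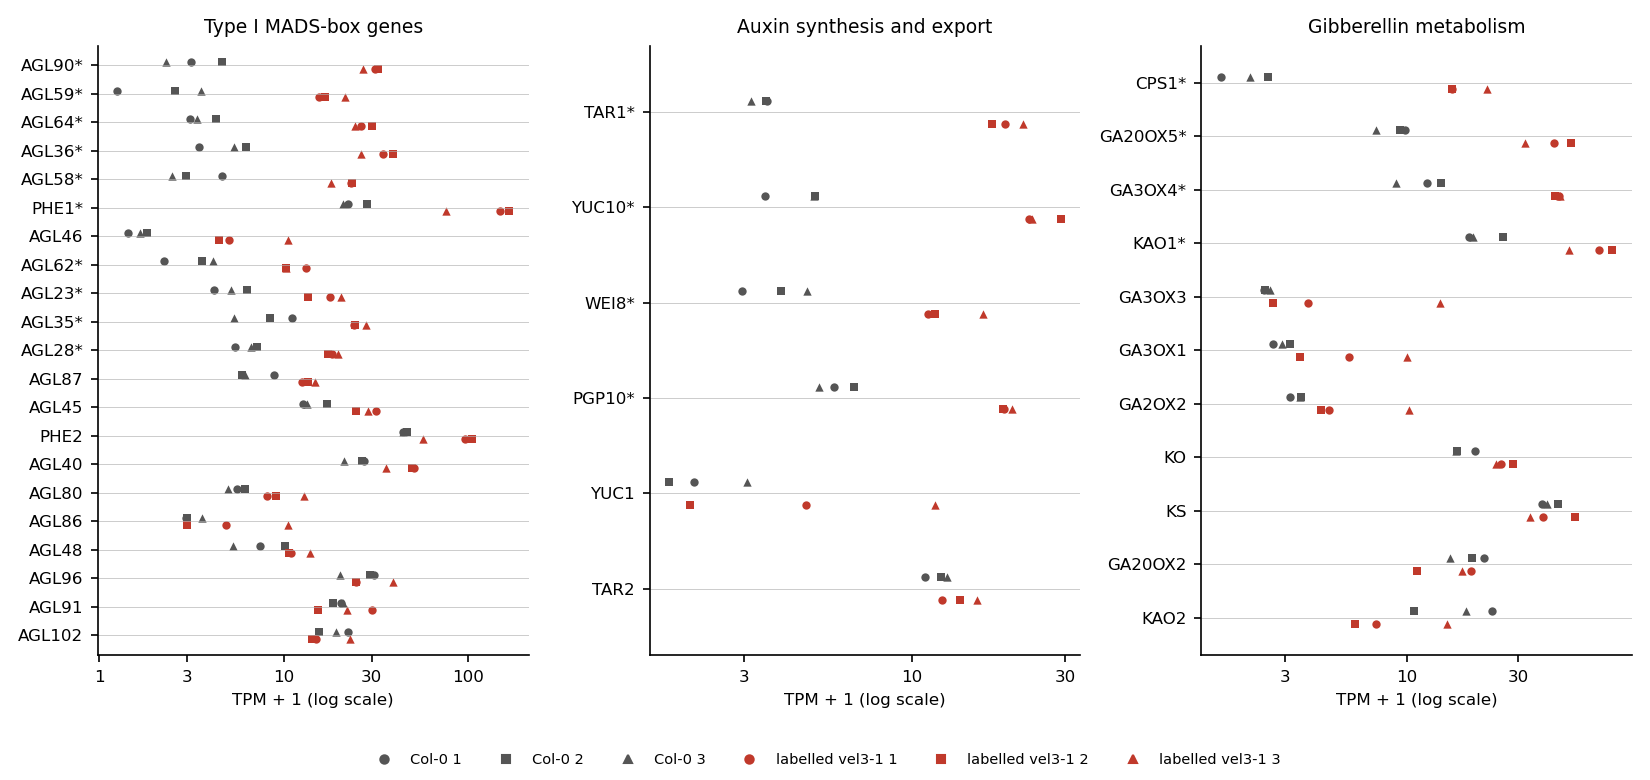
TPM + 1 (log axis) in each of the 6 libraries for the type I MADS-box, auxin and gibberellin genes above 5 TPM, with an asterisk at called genes. PHE1 lies at 19.9 to 27.5 TPM in Col-0 and at 74.99 to 166 TPM in the libraries labelled vel3-1, and KS overlaps between the genotypes.

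Of 13 genes of PRC2 and the VEL family, the 1 called (7.69%, against 1.81% of all genes) was *VEL3*, and the median of the 13 was 0.29 (0.17 with 5 libraries). The histone methyltransferase gene *MEA* was at 1.46, 1.98 and 2.02 TPM in Col-0 and at 5.32, 4.396 and 14.2 TPM in the libraries labelled *vel3-1*. The difference of 1.52 had an adjusted p of 0.0986 with 6 libraries, and that of 1.06 with 5 had one of 0.0329. *FIS2*, its partner in the seed complex, was at 21.9, 18.8 and 18.5 TPM and at 8.06, 6.71 and 15.01 TPM, a difference of -0.99 with 6 libraries and -1.31 with 5. The groups were apart for both genes, and neither met the call in both fits. *FIE* and *MSI1*, shared by all forms of the complex, had differences of 0.19 and 0.03. AT4G16810, annotated with the VEFS box found in the FIS2 family, rose from 3.37, 6.66 and 4.10 TPM to 40.1, 39.9 and 38.2 TPM (2.86 ± 0.24, adjusted p = 7.15e-05).

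Genes of DNA methylation and chromatin rose in a small set. *VIM5*, which encodes a protein binding methylated cytosine, was at 7.42, 9.44 and 9.41 TPM in Col-0 and at 38.6, 41.4 and 39.1 TPM in the libraries labelled *vel3-1* (2.07 ± 0.21, adjusted p = 7.03e-05). *SUVH7*, of the SU(VAR)3-9 homologues, went from 4.50, 6.13 and 3.85 TPM to 14.01, 15.7 and 16.1 TPM (1.50). The genes *DMT02* (AT4G14140) and AT4G08990, both annotated as DNA cytosine methyltransferases, *PKR2*, a remodelling factor related to PICKLE, and *VIM3* rose by 1.60, 1.81, 1.47 and 1.04, and were chosen after their values were seen. With the background subtracted, *VIM5* and AT4G08990 stayed past the threshold of limma on 6 libraries, and *SUVH7*, *DMT02*, *PKR2* and *VIM3* did not. In the class of SET domain and chromatin genes as a whole, 3 of 121 (2.48%) were called higher and 0 lower, against 1.81% and 0.39% of all genes.

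Imprinted genes, which are expressed mainly from the maternal or the paternal copy, were called on both sides. Of 10 paternally expressed genes listed, 9 passed the limit, 6 were called higher and 1 lower, against 1.81% and 0.39% of all genes. Among those called higher, *TAR1*, *YUC10*, *ADM* and *SUVH7* passed the limit through the libraries labelled *vel3-1* alone. The limit thus partly fixes the share. Besides *PHE1*, *VIM5*, *SUVH7*, *YUC10* and *TAR1*, *ADM* (ADMETOS), known for its part in seed failure of crosses between ploidies, rose from 1.99, 2.82 and 2.81 TPM to 8.94, 12.4 and 14.7 TPM. *HDG3*, a homeodomain factor of the endosperm, fell from 74.8, 45.6 and 61.6 TPM to 19.9, 16.2 and 21.7 TPM (-1.58 ± 0.19, adjusted p = 0.000939). Its direction is the opposite of the other called genes of the list. Of 10 maternally expressed genes, 9 passed, 3 were called higher (*AGL36*, *MPC* and *HDG9*) and 1 lower (*SDC*), beside the same shares of all genes. Of those called, *AGL36* passed through the libraries labelled *vel3-1* alone. *MPC*, encoding the C-terminal part of a poly(A)-binding protein, went from 46.4, 92.2 and 35.7 TPM to 235, 450 and 126 TPM (2.13 ± 0.21), and *SDC*, an F-box gene silenced by DNA methylation in other tissues, from 52.0, 58.5 and 55.6 TPM to 24.3, 26.4 and 30.4 TPM. The homeodomain gene *HDG9* rose by 1.103 and *HDG10*, which was in neither list, by 2.54, from 2.88, 3.66 and 2.31 TPM to 21.3, 21.5 and 22.5 TPM. With the background subtracted, 4 of the paternally and 1 of the maternally expressed list were called higher. TPM do not separate the parental copies. Of 19 genes that the study drew for this comparison, 18 passed the limit and 16 were called higher. The study chose them on these samples, so the count is no independent evidence of their direction. Among them are *PHE1*, *YUC10*, *TAR1* and *AGL36* of the imprinted genes called higher, and the study also showed *VIM5* and *SUVH7* on these samples.

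Nuclear factor Y (NF-Y) subunits, which bind DNA as trimers of A, B and C subunits, were called in both directions. They were taken from the annotation and chosen after their values were seen. *LEC1* (AT1G21970, chr1:7727577-7729649), a B subunit that sets embryo identity and acts in the endosperm too, fell from 78.1, 40.0 and 59.6 TPM to 13.7, 16.9 and 17.3 TPM (-1.78 ± 0.19, adjusted p = 0.00144). *HAP5B*, annotated as subunit C2, went from 126, 75.7 and 105 TPM to 41.0, 28.0 and 42.7 TPM (-1.43 ± 0.19, adjusted p = 0.00319). The groups were apart for both. In the other direction, 3 C subunit genes that lie side by side on chromosome 5 rose together. *NF-YC6* was at 32.0, 34.6 and 28.3 TPM in Col-0 and at 94.9, 137 and 88.6 TPM in the libraries labelled *vel3-1* (1.70 ± 0.19, adjusted p = 0.000291), and its neighbours *NF-YC5* and *NF-YC7* rose by 1.80 and 1.09. *NF-YC8*, elsewhere on the chromosome, rose by 1.74. *NF-YC11* was at 124, 129 and 124 TPM and at 57.8, 77.8 and 44.2 TPM, with a difference of -1.09 that fell short of 2-fold with 5 libraries (-0.90). Of 31 subunits above the limit, 4 were called higher and 2 lower, against 1.81% and 0.39% of all genes, with a median of 0.16. *NF-YC7* and *NF-YC8* missed the threshold of limma on 6 libraries with the background subtracted. The window upstream of *LEC1* (chr1:7729650-7729949, minus strand) is shown because the CCAAT letters bound by NF-Y occur in it 3 times, beside 4 of TATAAA on either strand, all in capitals.
LEC1: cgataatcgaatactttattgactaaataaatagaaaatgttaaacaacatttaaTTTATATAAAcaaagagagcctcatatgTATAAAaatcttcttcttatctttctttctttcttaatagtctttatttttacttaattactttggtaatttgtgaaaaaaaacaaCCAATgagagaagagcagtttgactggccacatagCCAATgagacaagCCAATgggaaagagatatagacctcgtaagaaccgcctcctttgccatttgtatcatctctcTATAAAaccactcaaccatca

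**Figure D4:**
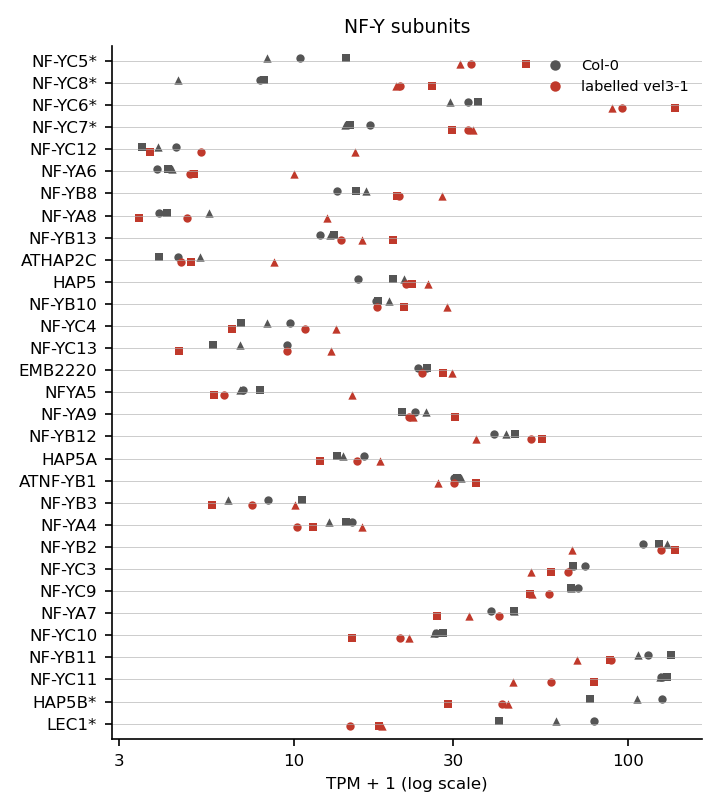
TPM + 1 (log axis) of the 31 NF-Y subunit genes above 5 TPM in each of the 6 libraries, ordered by difference, with an asterisk at called genes. The 4 called higher are C subunits, NF-YC6 reaching 137 TPM, and LEC1 and HAP5B lie lowest.

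Other classes of transcription factor genes are read against the 1.81% higher and 0.39% lower of all genes, and with the background subtracted 2 homeobox, 2 zinc finger and 0 MYB or AP2/ERF genes were called higher. *MINI3*, a WRKY factor that promotes endosperm growth and seed size, rose from 4.71, 5.19 and 3.63 TPM to 10.96, 9.95 and 15.6 TPM (1.25 ± 0.34, adjusted p = 0.0113). The MYB class had 3 of 65 genes higher (4.62%) and 1 lower. *MYB89* rose from 5.05, 8.02 and 5.72 TPM to 14.3, 29.6 and 20.8 TPM and AT1G68670 rose by 1.54, while *MYB118*, a factor of the maturing endosperm chosen after its values were seen, fell from 24.6, 11.2 and 17.7 TPM to 1.63, 1.202 and 7.99 TPM (-2.27 ± 0.34, adjusted p = 0.000251). The AP2/ERF class had 3 of 81 higher (3.70%) and 0 lower, led by *DDF1* (2.42) and AT1G21910 (1.70). The homeobox class had 5 of 124 higher (4.03%), *HDG10* and the clock-related *RVE2* (2.17) first, and 2 lower. Zinc finger genes had 7 of 350 higher (2.0%, near the share of all genes), AT5G27880 (2.52) and AT5G61470 (2.08) leading, and 1 lower. None of 61 bHLH and 43 NAC genes was called in either direction. *ZOU*, a bHLH factor that drives endosperm breakdown, was at 14.98, 15.7 and 12.7 TPM and at 5.32, 5.37 and 10.5 TPM, with a difference of -0.99 that missed the 2-fold minimum with 6 libraries and was -1.28 with 5.

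Small secreted peptides moved in both directions. Of 333 genes annotated as defensins, thionins and other cysteine-rich peptides, 25 (7.51%) were called higher and 11 (3.30%) lower, above the 1.81% and 0.39% of all genes. The counts were 14 and 10 with the background subtracted. *LCR61* went from 14.9, 43.9 and 17.3 TPM to 355, 181 and 252 TPM, and *LCR76* fell from 340, 659 and 388 TPM to 189, 45.4 and 76.9 TPM (-2.33 ± 0.26, adjusted p = 0.0306). Opposite directions also occurred within a few kilobases. The S1-like genes AT3G24060 and AT3G24065 rose by 1.25 and 2.73 beside AT3G24068, which fell by 3.87 on the log2 scale. AT3G24065 was at 11.4, 20.7 and 12.7 TPM in Col-0 and at 136, 112 and 67.5 TPM in the libraries labelled *vel3-1*. Likewise AT3G17150 and AT3G17152, annotated as invertase or pectin methylesterase inhibitors, rose by 2.28 and 2.87, and the unannotated AT3G17160 close by fell from 201, 224 and 227 TPM to 144, 70.4 and 120 TPM. AT3G24060, AT3G24065, AT3G17150 and AT3G17160 were chosen after their values were seen.

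Lipid-transfer and 2S albumin-like genes had the highest share of falls of the classes. Of 58 genes of the lipid transfer class, 3 (5.17%) were called higher and 6 (10.3%) lower, against 1.81% and 0.39% of all genes. AT1G73550 rose from 36.5, 51.5 and 27.4 TPM to 160, 126 and 118 TPM (1.82 ± 0.19, adjusted p = 0.00102) and AT1G05450 rose by 2.40. AT4G15160, among the highest of the genes called lower, went from 321, 419 and 283 TPM to 180, 47.5 and 184 TPM (-1.52 ± 0.26, adjusted p = 0.0435), and its libraries labelled *vel3-1* differed more among themselves than those of Col-0. AT5G38197, another such gene near AT5G38160 and AT5G38180 and chosen after its values were seen, fell by 1.05 on the log2 scale. The seed storage class, which shares these annotations, had 3 of 63 genes higher and 5 lower. With the background subtracted, 3 lipid transfer and 2 seed storage genes were called lower.

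Genes of wall and sugar enzymes, and of inhibitors of such enzymes, were called in both directions. The pectin and sugar classes overlap, since invertase or pectin methylesterase inhibitors such as AT3G17152 and AT1G54980 are counted in both. The pectin class had 10 of 113 genes higher (8.85%) and 2 lower, the sugar transport and metabolism class 12 of 203 (5.91%) and 2, and the cell wall polysaccharide class 8 of 232 (3.45%) and 2, beside 1.81% and 0.39% of all genes. Of all calls 82.3% were higher. The adjacent endoglucanase genes *GH9B9* and AtGH9B10, which act on glucans of the wall, rose by 2.59 and 2.48. *GH9B9* went from 99.4, 233 and 88.5 TPM to 904, 1040 and 488 TPM, and the groups did not overlap. They share 33.1% and 36.4% of their exon words with other loci, so the split between them is uncertain. AT3G17152 went from 10.6, 22.1 and 12.9 TPM to 149, 126 and 74.5 TPM (2.87), and AT1G54980 of the same inhibitor family rose by 2.49. The subtilisin-like protease gene AT5G58820 rose from 12.9, 26.9 and 11.3 TPM to 184, 180 and 89.2 TPM (3.10 ± 0.18, adjusted p = 0.0001), and the cysteine protease gene AT4G23520 by 2.66. Proteases as a class had 9 of 373 higher and 2 lower. With the background subtracted, 6 pectin, 6 sugar, 4 polysaccharide and 2 protease genes were called higher.

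F-box genes encode the substrate-binding parts of ubiquitin ligases. Of 217 members, 15 (6.91%) were called higher and 1 lower, which was *SDC*, against 1.81% and 0.39% of all genes. Their values were low. AT1G67390 was at 0.252, 1.40 and 0.255 TPM in Col-0 and at 7.95, 7.15 and 13.3 TPM in the libraries labelled *vel3-1*, and AT1G66290 at 1.97, 0.970 and 2.66 TPM and at 12.7, 18.0 and 15.3 TPM. The median difference of the class dropped from 0.60 with 6 libraries to 0.27 without the library with raised values, and 7 were called higher with the background subtracted. Of 79 cytochrome P450 genes, 6 (7.59%) were called higher and 0 lower, beside the same shares of all genes. *CYP89A6* went from 16.7, 25.1 and 19.9 TPM to 105, 70.9 and 76.0 TPM (1.97 ± 0.19, adjusted p = 0.00033), and *CYP79C1* rose by 1.91. The P450 count was 3 with the background subtracted. The ABC and MATE transporter class had 3 of 69 higher (4.35%, beside 1.81% of all genes), *PGP10* and AT1G33110 (1.77) among them. Among nutrient transporters, 1 of 11 was called (9.09%, beside 1.81% of all genes). This was *AAP8*, an amino acid permease that loads nitrogen into young seeds, from 12.2, 20.2 and 12.3 TPM to 51.8, 44.6 and 40.4 TPM (1.58 ± 0.20, adjusted p = 0.00129).

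Housekeeping genes were called at a low share and photosynthesis genes on the lower side. Of 365 ribosomal protein genes, 3 (0.822%, against 1.81% of all genes) were higher and 0 lower, with AT5G63070 (1.96) and AT5G09500 (1.67) leading, and the class median was -0.02. None of 150 cell division, 122 translation factor and 142 receptor-like kinase genes was called. Of 84 photosynthesis genes, 0 were higher and 2 lower (2.38%, against 0.39% of all genes). These were *CAB3*, from 30.4, 24.3 and 26.7 TPM to 7.19, 5.87 and 16.3 TPM, and *PSAF*, from 218, 219 and 188 TPM to 98.1, 93.3 and 109 TPM, both named after their values were seen. *QQS*, a starch regulator with no known relatives outside the species and likewise chosen afterwards, fell from 15.2, 15.5 and 14.01 TPM to 1.67, 1.30 and 9.81 TPM (-1.97 ± 0.35, adjusted p = 4.07e-05). Its replicate 3 value lies at the 10.0 TPM of silent genes in that library. Genes of unknown function held 52 of the rises and 12 of the falls, in a class of 2757 (1.89% and 0.435%, near the 1.81% and 0.39% of all genes), and 23 and 11 with the background subtracted.

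**Figure D5:**
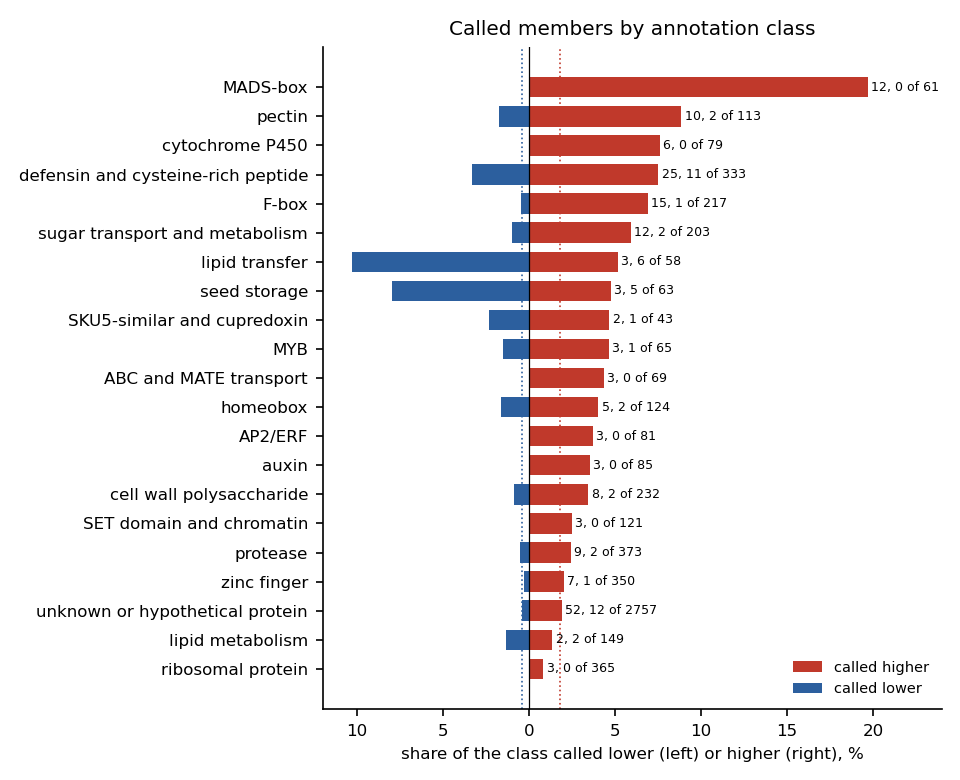
Share of each annotation class called higher (right) or lower (left) in the libraries labelled vel3-1, in percent, with dotted lines at the shares over all 17710 genes, 1.81% and 0.39%. MADS-box genes stand furthest to the right at 19.7% and lipid transfer genes furthest to the left at 10.3%.

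Tissue markers were read as whole lists beside these results, and their calls beside the 1.81% higher and 0.39% lower of all genes. Summed over 11 seed coat genes, TPM was 2698, 2816 and 3053 in Col-0 and 3027, 3375 and 2007 in the libraries labelled *vel3-1*. Of its 10 members above the limit, 1 was called, the mucilage enzyme gene *MUM2*, from 12.4, 17.3 and 12.3 TPM to 57.8, 47.9 and 36.7 TPM (1.68 ± 0.20, adjusted p = 0.000266). The pigment genes *BAN* and *TT4* differed by -0.14 and -0.06. Over 8 endosperm genes the sums were 111.4, 117 and 98.6 TPM and 129, 137 and 151 TPM, with 1 of 7 members called (*MINI3*). Of the 7 members, 4 had all libraries labelled *vel3-1* above Col-0. In 2, *ZOU* (-0.99) and *ALE1* (-0.44), all lay below it. The sum of replicate 3 holds its raised level at silent genes, as in *EDE1*, at 4.31, 1.99 and 13.1 TPM in the libraries labelled *vel3-1*. Over 14 embryo genes they were 546, 616 and 581 TPM and 446, 322 and 379 TPM, with 1 of 9 called (*LEC1*), so the embryo sums of the genotypes did not overlap. The epidermal genes *ATML1* and *PDF1* make up most of that sum, with differences of -0.11 and -0.90, and *WOX2*, *WUS* and *STM* were at or under 2.98 TPM outside replicate 3.

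Silique wall and leaf genes summed to 1889, 1768 and 1604 TPM in Col-0 against 1374, 1779 and 965.7 TPM in the libraries labelled *vel3-1*, with none of 4 members called. The egg cell and synergid genes summed to 0.571, 0.675 and 2.78 TPM and to 8.16, 1.28 and 31.9 TPM, and the 3 labelled *vel3-1* stand in the order of their level at silent genes. The pollen gene was at 1.22, 2.93 and 0.896 TPM and at 3.90, 0.816 and 8.51 TPM. Storage protein and oleosin genes were nearly silent, with 9 of 12 under 1 TPM in every Col-0 library. Of 15 cell cycle genes 14 passed the limit, none was called, and their median was 0.12. Of 5 developmental cell death genes above the limit none was called. The lower embryo sum moves with the falls. The endosperm sum moves with the rises, although the genes of its list differed in direction. The part of either sum in those results was not tested.

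Most called genes were under 1 TPM in imbibed endosperm. The 24HAI libraries were made from endosperm-enriched tissue and the globular ones from whole seeds, so stage and tissue cannot be told apart. In 24HAI endosperm, whose TPM were scaled apart, 52 of the 320 genes called higher (16.2%) and 17 of the 69 lower (24.6%) reached 5 TPM in either genotype, against 63.9% of all 17710 genes. Under 1 TPM in all 6 of those libraries lay 229 (71.6%), 40 (58.0%) and 19.8%. At 24HAI the genotypes were apart with the libraries labelled *vel3-1* higher for 50 of the 320 (15.6%) and 15 of the 69 (21.7%), beside 10.8% of all genes, and with those libraries lower for 9 (2.81%) and 4 (5.80%), beside 1942 of all 17710 genes.

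On the chromosomes, 54 of the 320 genes called higher (16.9%) lay within 3 Mb of a centromere, against 6 of the 69 lower (8.70%) and 9.80% of all genes. Genes whose exon sequence also occurs elsewhere, described below, were not taken out of these counts, and their part in the 16.9% was not tested. By chromosome, the share called higher was 2.23%, 2.02%, 1.63%, 1.61% and 1.47% on chromosomes 1 to 5. A gene called higher was next to another such gene in 36 cases (11.2%), against 2.44% of all genes. The adjacent genes formed 15 pairs and 2 runs of 3, the NF-Y C subunits on chromosome 5 and AT2G07806, AT2G07738 and AT2G07795 on chromosome 2. No adjacent genes were both called lower. In each gene of the chromosome 2 run at least 94.5% of the exon words occur in the organelle genomes, so its reads cannot be placed with certainty. Among the pairs were *AGL58* with *AGL59*, the thionin-like pair, *GH9B9* with AtGH9B10, *VIM3* with AT5G39560, and the defensin-like genes AT4G14272 and AT4G14276. AT4G14272, named for its place in a pair, was listed at 0, 0 and 0.287 TPM in Col-0 and at 7.69, 1.64 and 19.5 TPM in the others, in the order of the level at silent genes.

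Some of the genes called higher consist of sequence that also occurs elsewhere. In 13 of the 320 genes (4.06%) at least 50% of the 31-base words of the exons occurred again in the nuclear or organelle genomes, against 0.966% of all genes. In 9 of these 13 (2.81% of the 320, all on chromosome 2) at least 50% were found in the chloroplast or mitochondrial genome, against 0.226% of all genes and 0 of the 69 lower. AT2G07795 is such a gene, at 2.50, 2.33 and 2.95 TPM in Col-0 and at 44.0, 9.99 and 44.1 TPM in the libraries labelled *vel3-1*. The sum of mitochondrial TPM was 23470, 20160 and 26190 in Col-0 and 27900, 27090 and 19440 in the other libraries, so replicates 1 and 2 labelled *vel3-1* lay above Col-0 and replicate 3 below it. The 3 genes within 10000 bases of an annotated rRNA gene were all called higher. AT3G41762, the highest of all genes called higher, was at 158, 253 and 245 TPM and at 2018, 824.5 and 2721 TPM, and lies 812 bases from an rRNA gene with 81.3% of its words repeated. AT2G01008 and AT2G01023 rose by 2.86 and 3.19. Reads from such sequence cannot be placed with certainty, and the part of RNA other than these genes' own in those values was not tested. AT2G07795, AT2G01008 and AT2G01023 were chosen after their values were seen. AT3G02670, a glycine-rich protein gene and the other gene of the highest level, went from 236, 444 and 192 TPM to 1389, 761 and 838 TPM.

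The upstream windows of 17708 genes were searched for 6 short motifs on both strands. In these 300 bases, the CArG-box bound by MADS factors occurred in 2.81% of genes called higher, 2.90% of those lower and 3.12% of all. CCAAT occurred in 45.9%, 56.5% and 53.3%, CACGTG, the G-box, in 4.06%, 2.90% and 7.90%, and CATGCA, part of the RY element of seed genes, in 10.0%, 13.0% and 8.67%. TGTAAAG, the core of the prolamin box of endosperm genes, was in 7.81%, 5.80% and 5.53%. TATAAA was in 64.1% of genes called higher and 66.7% of those lower against 51.7% of all. These are matches of letters, matches of different motifs may overlap, and they do not show that a factor binds.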

How the data were processed

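RNA-seq of globular seeds was used, 3 libraries of Col-0 and 3 labelled *vel3-1*, whose replicate numbers are those of the table's column names. Per the labels and the study's methods, the authors used cutadapt 1.9.1 to trim reads, STAR 2.5 to align them (genome TAIR10) and featureCounts to count those in sense orientation. The authors deposited TPM, scaled by gene length and library, so counts and depth per gene are unknown, and no count test or counting interval was possible. How TPM were made is not given in the sources used here. Precision rests on 3 libraries per genotype, and for 6 libraries limma took each standard error from genes at the same level.

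The log2 of TPM + 1 was compared for the 26593 genes whose mean reached 1 TPM, by limma (version 3.58.1, R 4.3.3) with a trend and Benjamini-Hochberg adjustment over all of them. The procedure was tested on simulated data. A single gene tested alone by an exact permutation test could not go below p = 0.1. The libraries are described as biological replicates of pooled seeds. In the reported fit of 6 libraries, p-values reflect the variation typical of a gene's level, not how far its own replicates differ. Those of the fit of 5 libraries weigh both. Tables and plots were made with Python 3.11.15, pandas 2.3.3, numpy 2.4.6 and matplotlib 3.10.9.

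Classes were read from the annotation column, and lists by gene identifier. The members and lists were chosen with earlier results of these data known. Named genes are the 10 largest differences each way among called genes whose groups do not overlap, the 2 largest of each class with at least 3 calls in a direction, the 3 of highest mean level each way, *VEL3*, *ACT2* and members of the counted lists. Coordinates, upstream sequences, rRNA genes and exon words of 31 bases are from RefSeq, build TAIR10.1. No promoter table or protein table was used. 1 further upstream sequence is not reported here. The alternatives were another pseudocount, other filters, other scalings, a background subtraction, other variance models, the replicate block, no fold minimum, 6 libraries alone and each library left out. The 24HAI table was scaled apart and used only beside the globular values.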

Additional observations from a re-analysis of the deposited data

Results flagged for a closer look

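Among the named called genes with a mean of 5 TPM or more in either genotype at 24HAI, 4 showed the libraries labelled *vel3-1* and Col-0 in the opposite order to globular seeds, with all 3 libraries of a genotype on one side at each stage. The tables of the stages were scaled apart and come from different tissues, whole seeds and endosperm, and the difference between them was not tested. AT5G38160 and AT3G49300 were lower in the libraries labelled *vel3-1* in globular seeds, but at 24HAI their means were 15.4 TPM against 10.7 TPM in Col-0 and 27.5 TPM against 18.5 TPM. AT3G17160, lower in globular seeds, had a mean of 49.4 TPM against 43.3 TPM. AT1G73550, higher in globular seeds, had a mean of 21.1 TPM against 25.7 TPM. Under that limit, *MPC*, *DDF1*, AT1G15757, AT3G24068 and *HDG3* were in the opposite order too. Each of the 4 later differences is smaller than that in globular seeds.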

How the results depend on the processing

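Of the 114 genes followed, most of them named for 2-fold or larger differences, *ACT2* alone changed sign in the alternatives in which each was tested (the filter on the mean over 6 libraries left some out). It had 0.08 as reported, -0.00396 with median-ratio scaling and -0.17 with the background subtracted, all far from the threshold. Uncalled genes outside the 114 changed sign too, such as *TAR2* (0.23, and -0.26 with the background subtracted) and *AGL96* (0.12, and -0.10 without *vel3-1* replicate 3). The count of genes called higher, 320 as reported, was 72 with no filter on low values, 190 with quantile normalization and 147 with the background subtracted. The count called lower, 69 as reported, was 6 with no filter and 129 with no fold minimum. Limma without the trend called 0 higher and 0 lower, with 1334 and 319 at an unadjusted p under 0.05, and the same model on the 5 libraries without *vel3-1* replicate 3, chosen after seeing the data, called 157 higher and 24 lower. Calls thus depend on borrowing the spread from genes at the same level. Leaving out single libraries, the count called higher ran from 250 to 543, the highest without *vel3-1* replicate 2, and the count called lower from 48 to 113, the highest without *vel3-1* replicate 3. Of the genes called as reported, 221 to 264 of those higher and 38 to 58 of those lower were called again when a library other than *vel3-1* replicate 3, whose omission is part of the call, was left out. The share of calls that were higher, 82.3%, was 67.1% with the background subtracted, 71.4% without *vel3-1* replicate 1 and 92.3% with no filter. Of the 114 genes, 31 no longer passed the threshold with the background subtracted, 27 with quantile normalization, 60 with no filter, 105 without the trend, 12 with a robust spread (AT5G38160, AT5G38180, *PDF2.2*, *GATA29* and AT1G15757 among them) and 1 to 13 with a single library left out. AT1G68670, AT5G61470, AT5G63070, *AGL29* and AT4G14272 fell short in 4 of the 6 settings that leave out 1 library, *MINI3* when any 1 Col-0 library was left out, *AGL62* without replicate 1 of either genotype, AT3G41762 without Col-0 replicate 1, AT5G52080 without *vel3-1* replicate 1, *HDG9* without Col-0 replicate 3, and AT4G15160 and *PSAF* without *vel3-1* replicate 2. *SDC*, AT3G02670, *DDF1* and AT3G17160 fell short in 3, and *VIM3*, AT3G24060 and AT5G38197 in 2. The median over all 17710 genes, 0.21, was -0.03 with quantile normalization and -0.20 with the background subtracted.

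The replicate numbers are not stated to pair the samples. Deviations of same-numbered libraries correlated at 0.07, 0.18 and 0.31, and Col-0 replicate 1 correlated best with *vel3-1* replicate 2, at 0.11. Deviations from a mean of 3 libraries depend on one another, so these values cannot decide whether the samples are paired. The fit with the replicate number as a block (replicate block) called 360 higher and 86 lower, 304 and 68 of them among the genes called as reported. The depth per gene is unknown, and levels near the 10.0 TPM of silent genes in *vel3-1* replicate 3 cannot be read in that library.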
